A study of Mus musculus with 3 samples.

Results

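Ribosomal RNA genes are read from 2 genomes in a mouse cell. In the nucleolus, RNA polymerase I transcribes tandem repeats of ribosomal DNA into the 45S precursor (Rn45s), which is cut into the large RNAs of the cytoplasmic ribosome. In the mitochondrion, mt-Rnr1 and mt-Rnr2 encode the small and large ribosomal RNAs of the organelle's own ribosome. Both kinds of DNA are present in many copies per cell, whereas the reference assembly holds 1 mitochondrial chromosome and only parts of the ribosomal DNA repeats. Tex10, the protein mapped here, is known from outside these data as a partner of Pelp1 and Wdr18 in a nucleolar complex needed to process precursor RNA of the large ribosomal subunit. The 5S ribosomal RNA genes, which RNA polymerase III reads, are not part of this description.

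The peaks described are those of the deposited Flag-Tex10 list (build mm9) that overlap a 45S window or lie on the mitochondrial chromosome. The window, chr17:39970000-39995000, was given for the assembled 45S unit. There were 3 such peaks among 5189, 1 in the 45S window and 2 on the mitochondrial chromosome. They were chosen by the positions of the called peaks, with their widths and scores already known. All values below are therefore descriptions, and no test was made on them.

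Chromatin immunoprecipitation followed by sequencing (ChIP-seq) had been done on J1 mouse embryonic stem cells of strain 129SV, cultured in serum with leukaemia inhibitory factor on gelatin. All 3 libraries of the series came from cells that express 3xFlag-Tex10 from a piggyBac transposon transgene, in addition to any endogenous Tex10. The groups held 1 library each: an immunoprecipitation with an antibody to FLAG, another with normal mouse IgG, and input DNA. Peaks of the FLAG library alone were used, and the other libraries, IgG and input, are not analysed here. The peaks therefore concern recovery with a tagged, ectopically expressed protein, and cells without the transgene were not among the groups. The list gives no read counts, so depth is unknown, no interval can be attached to a peak, and with 1 library no spread between experiments exists. It gives no expression values either, so the embryonic stem cell label could not be checked against marker genes.

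The 45S peak and the 2 mitochondrial peaks, of which 1 contains the mitochondrial ribosomal RNA genes and the other does not, were the 3 widest of the list. The mitochondrial peak that contains the ribosomal RNA genes was 6439 bp wide, the 45S peak 5964 bp, and the other mitochondrial peak 5334 bp. The median peak of the list was 314 bp, so the 3 were between 17 and 20.5 times as wide as the median. The narrowest of the 3 was 3.21 times as wide as the widest remaining peak. Of all 5189 peaks, 0.0578% were at least 2000 bp wide, and those were these 3 peaks and no other. A width of at least 1000 bp was reached by 0.501% of peaks, 26 in all. Since the widths were already known when the peaks were chosen, these counts describe them and support nothing further.

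The remaining 23 peaks of at least 1000 bp were close to one another in width. Their median was 1089 bp and their widest 1662 bp. The 3 widest of them lay at chr9:2999953-3001614 (1662 bp, score 131), chr2:98506288-98507590 (1303 bp, score 252) and chr19:23207595-23208822 (1228 bp, score 15.2). No peak of the list had a width between 1662 and 5334 bp. The plot of the widest peaks shows this break after the third bar.

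**Figure D1:**
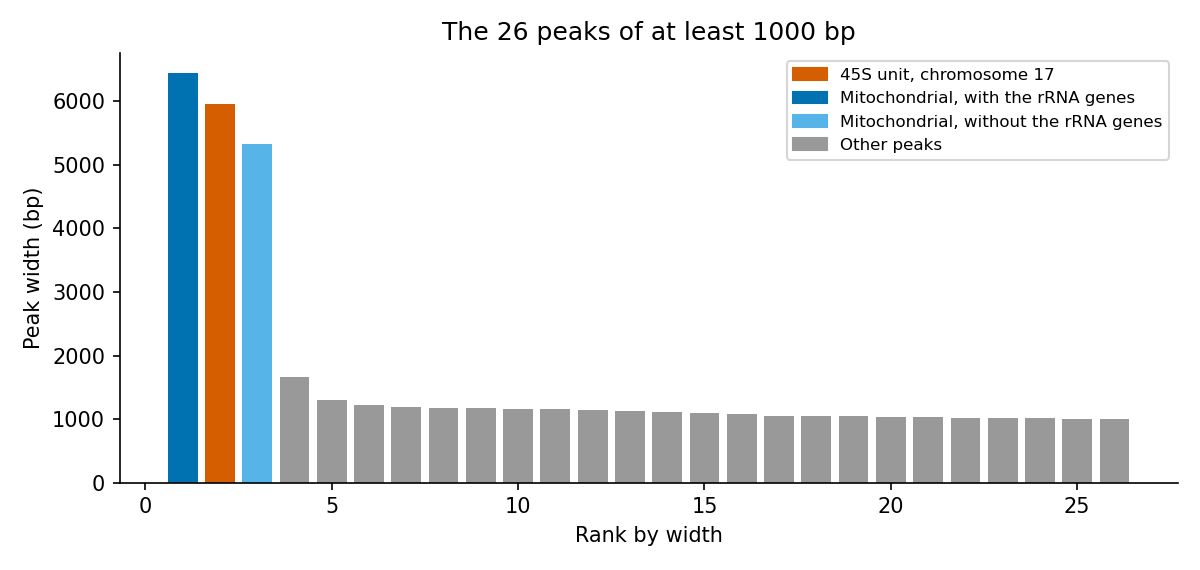
Width in bp (y axis, from 0) of each of the 26 peaks of at least 1000 bp, ordered by width (x axis, rank). The coloured bars are the 45S peak and the 2 mitochondrial peaks, at 5334 to 6439 bp, and the grey bars, the other 23 peaks, do not exceed 1662 bp.

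In score, the 3 peaks stood high in the list without leading it. The score is the number the authors gave each peak, on a scale that no source used here names, and it serves only to order peaks within this list. The 45S peak scored 125 and ranked 22 of 5189. The mitochondrial peak without the ribosomal RNA genes scored 93.6 and ranked 40, and the one with them scored 33.2 and ranked 115. The median score of the list was 5.22 and the highest 432. A score of at least 10 was reached by 14.5% of peaks and by all 3 of these, and a score of at least 100 by 0.655% of peaks and by the 45S peak alone of the 3. Many peaks of the list share a score exactly, but none shared the score of these 3.

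The order by width and the order by score differed. The widest peak, over mt-Rnr1 and mt-Rnr2, had the lowest score of the 3. Conversely, 21 peaks scored above the 45S peak, and the widest of those was 1662 bp, with a median of 655 bp. Above the second mitochondrial peak stood 39 peaks with a median width of 519 bp, and above the peak with the mitochondrial ribosomal RNA genes 114 peaks with a median of 456 bp. Across score classes the other peaks widened only moderately, from a median of 298 bp at scores below 10 (4437 peaks) to 389 bp from 10 to below 30 (626 peaks), 425 bp from 30 to below 100 (90 peaks) and 519 bp at 100 and above (33 peaks). Across all peaks the Spearman correlation of width with score was 0.368, and it was 0.367 without the 45S peak and the 2 mitochondrial peaks. Peaks share a library and are not replicates, so this coefficient only describes the list.

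**Figure D2:**
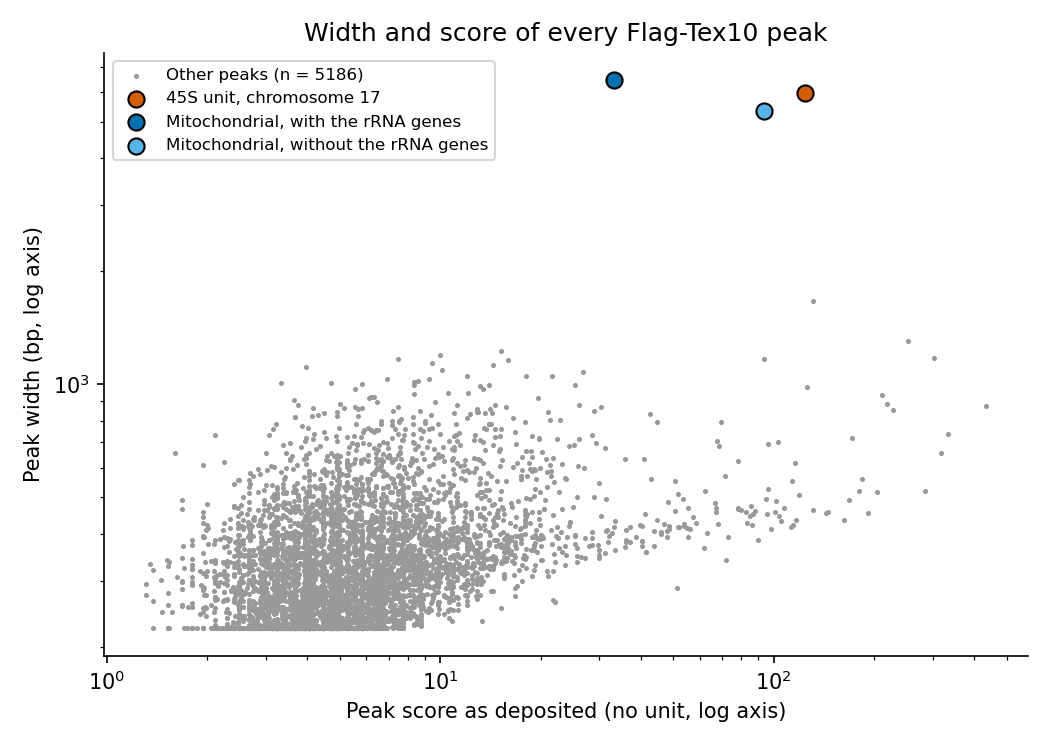
Width in bp against the deposited score for all 5189 peaks, both on log axes, 1 point per peak. The 3 large coloured points (the 45S peak and the 2 mitochondrial peaks) lie above all 5186 grey points in width, while their scores of 33.2, 93.6 and 125 lie within the range of the grey points, which reaches 432.

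The peaks next to them in score were 416 to 1164 bp wide. Just above the 45S peak in score came chr15:74916551-74917533 (983 bp, score 126), and just below it chr4:152173502-152174007 (506 bp, score 119). The second mitochondrial peak lay between chr9:4138817-4139310 (494 bp, score 95.1) and chr9:3024910-3026073 (1164 bp, score 93.4). The peak over the mitochondrial ribosomal RNA genes lay between chr17:35406910-35407342 (433 bp, score 33.4) and chr8:127317095-127317510 (416 bp, score 33.1).

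On chromosome 17 the 45S peak ran from 39979874 to 39985837. It lay near the middle of the 25 kb window, 9.87 kb from its start and 9.16 kb from its end, and covered 23.9% of it as a single unbroken interval. No other peak lay in the window. The parts of the 45S precursor that become mature ribosomal RNA, and the spacers cut out between them, were not placed within the peak, because no mm9 annotation was used here. For the same reason, the share of Rn45s itself under the peak is unknown, and the 23.9% refers to the window only.

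Among the 224 peaks of chromosome 17 the 45S peak ranked first in both width and score. The other 223 peaks, as deposited, had a median width of 332 bp and a widest of 1110 bp. The 45S peak was thus 5.37 times as wide as the next. This contrast depends on how peaks are split. With peaks less than 500 bp apart joined, an interval of 3320 bp formed on the same chromosome, at chr17:34256628-34259947. The median score of the other 223 peaks was 5.25 and their highest 55.3, against 125 for the 45S peak. The 45S peak made up 6.99% of all bases under peaks on this chromosome. With it, 0.0896% of chromosome 17 lay under peaks, and without it 0.0833%.

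When the nuclear genome was divided into bins of 25 kb on a fixed grid, 4405 bins held some part of a peak. The median of those was covered for 1.32% of its length. The bin with the 45S peak was covered for 23.9% and ranked 2. The first was chr9:3000001-3025000, at 26.8%, and the next after the 45S bin was chr9:3025001-3050000, at 15.6%. The 45S bin reached this share with 1 peak.

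The nearest peak before the 45S peak, outside the window, was chr17:39905911-39906232, 73.6 kb away, with a width of 322 bp and a score of 4.47. The nearest after it was chr17:43173086-43173310, 3.19 Mb away, with a width of 225 bp and a score of 3.88. That empty stretch was the fourth longest of the 223 between neighbouring peaks of chromosome 17, where the median was 101 kb and the longest 4.19 Mb. It ranked 147 of 5166 such stretches over the nuclear chromosomes. The 45S peak's distance of 73.6 kb to the closest peak was not unusual, since 42.4% of the 5187 nuclear peaks were at least as far from theirs, and the median was 51.7 kb.

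Within 5 Mb on each side lay 33 other peaks, 29 before and 4 after the 45S peak. Their widths ran from 225 to 1018 bp with a median of 357 bp, and their scores from 3.18 to 33.4 with a median of 5.46. None came near the 45S peak in either measure.

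**Figure D3:**
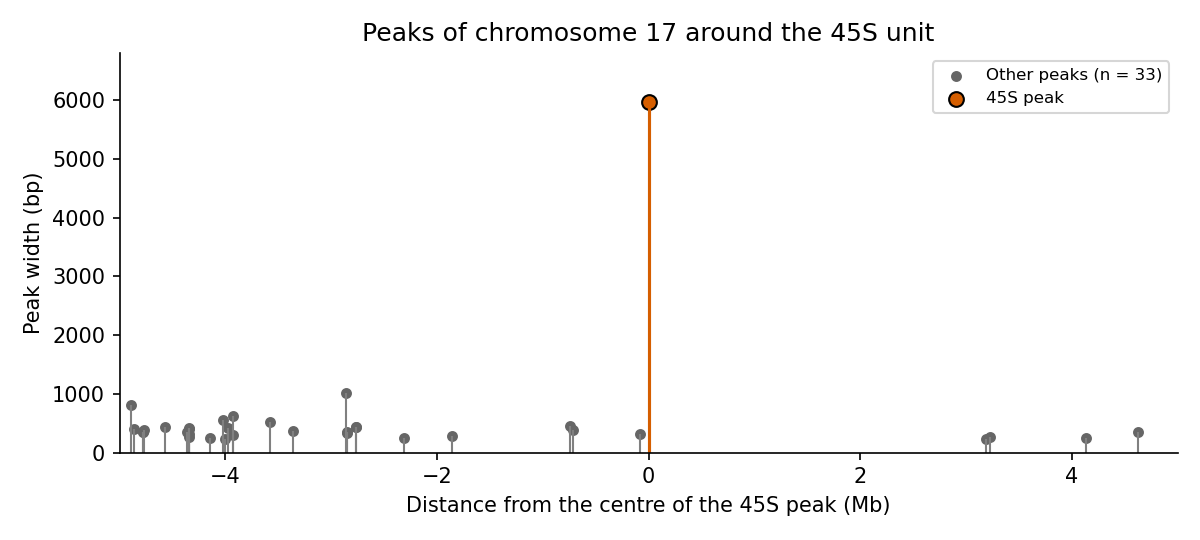
Width in bp (y axis, from 0) of the peaks of chromosome 17 against the distance of their centres from the centre of the 45S peak in Mb (x axis), 1 stem per peak. The 45S peak reaches 5964 bp, the 33 other peaks within 5 Mb do not exceed 1018 bp, and the 3.19 Mb after the 45S peak hold none.

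The mitochondrial chromosome is a circle of 16.3 kb in mm9, written in the assembly as a line that begins just before the ribosomal RNA genes. In gene order, from the RefSeq table of GRCm38.p6, TrnF comes first, followed by mt-Rnr1, TrnV, mt-Rnr2, TrnL1 and ND1. TrnF, TrnV and TrnL1 are transfer RNA genes that flank the ribosomal RNAs and punctuate the long primary transcripts, and ND1 encodes a subunit of respiratory complex I. The table lists 37 mitochondrial genes, of which 2 are for ribosomal RNA, 22 for transfer RNA and 13 for proteins. It belongs to another build than the peaks, so it gave names and order only.

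The peak with the ribosomal RNA genes ran from 39 to 6477. It covered 100% of the span of mt-Rnr1 and mt-Rnr2, which was given as 70 to 2675, or 2606 bp. It began 31 bp before that span and continued 3802 bp past its end. This span, which by gene order also holds TrnV, therefore took up 40.5% of the peak. The larger part of the peak lay over the genes that follow the span. With a single score for the whole interval, the list does not show whether the signal was higher over the ribosomal RNA genes than over the rest of the peak.

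The second mitochondrial peak ran from 10950 to 16283 and contained no ribosomal RNA gene. It began 8274 bp past the end of mt-Rnr2, and across the origin of the circle its end lay 85 bp before the span of mt-Rnr1 and mt-Rnr2. It was 1105 bp narrower than the first peak but scored higher, 93.6 against 33.2. On this chromosome the higher score thus belonged to the peak that does not contain the ribosomal RNA genes. No error can be given for either score, so how firmly they differ is unknown.

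Between the peaks an interval of 4472 bp, from 6478 to 10949, held none and made up 27.4% of the chromosome. The rest of the chromosome without a peak was 38 bp at its start and 16 bp at its end. On the circle these ends meet, so that only 54 bp separated the end of the second peak from the start of the first. Read in that way, the peaks formed a single stretch of 11827 bp, or 72.6% of the circle, within which the ribosomal RNA genes were an inner segment.

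**Figure D4:**
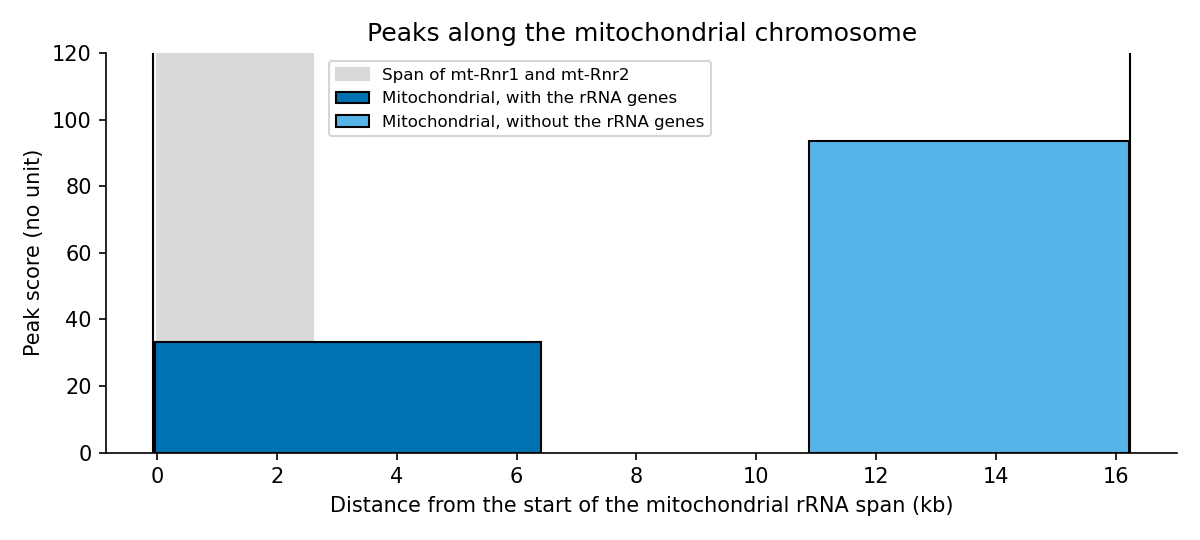
Deposited score (y axis, from 0, no unit) of the 2 mitochondrial peaks, drawn as bars over their extent, against the distance from the start of the ribosomal RNA span in kb (x axis), with black lines at both ends of the linear chromosome. The grey band is the span of mt-Rnr1 and mt-Rnr2, which lies inside the peak scoring 33.2 and not in the peak scoring 93.6.

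Peaks covered 72.2% of the mitochondrial chromosome. On the 21 nuclear chromosomes the share ran from 0.00872% on X to 0.125% on chromosome 8, with a median of 0.0692%. The short length of the mitochondrial chromosome raises such a share by itself: a single peak of the list's median width would cover 1.93% of it, which is 15.4 times the highest nuclear share. The copies of mitochondrial and ribosomal DNA per cell were not measured here. No control value per peak was used, and the part of DNA copy number or of unspecific recovery in these widths and scores was not tested.

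**Figure D5:**
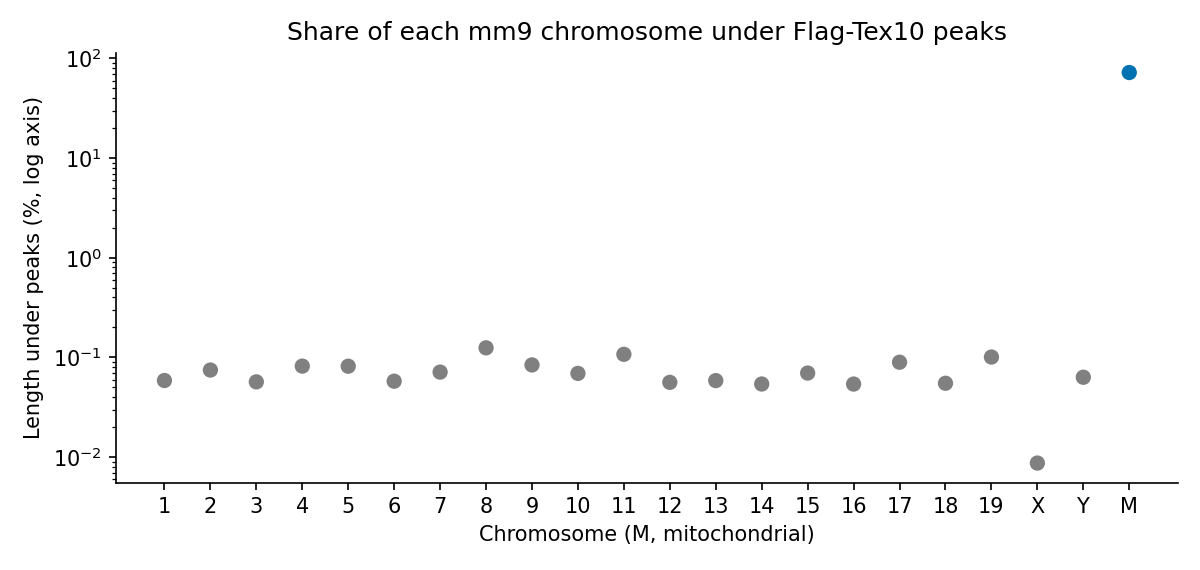
Share of each mm9 chromosome's length that lies under peaks, in percent on a log axis, 1 point per chromosome with the mitochondrial chromosome (M) in blue. M lies at 72.2% and the 21 nuclear chromosomes lie between 0.00872% and 0.125%.

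Together the 3 peaks were 0.0578% of the peaks and 0.961% of the bases under peaks, 17.7 kb of 1846 kb. On a fixed grid of 1 kb, 18 bins of the genome lay wholly under peaks. Each of the 3 peaks held 5 of those bins, and 3 lay elsewhere. By this measure 15 of the 18 wholly covered bins lay in the 45S window or on the mitochondrial chromosome. Bins of this size can be wholly covered only by peaks at least 1 kb wide, so the count restates the widths given above.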

How the data were processed

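The series has 3 libraries in 3 groups of 1, assigned by antibody or title, and 1 of them, the FLAG library, has a file that was used. It lists peak positions, with a score per peak that the authors deposited without naming its scale. Per the submitters' processing notes positions are on mm9. Those notes name Bowtie 1.0.0, bedtools 2.18.1, SAMtools 0.1.19 and FastQC 0.10.1 and give no role for any of them. The peak caller, its control and its threshold are not given in the sources used here. Whether reads that align to several places were kept is not given either, and this could change peaks over repeated DNA.

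Starts were made 1-based. Widths, ranks, covered bases and gaps were computed with Python 3.11.15, pandas 2.3.3 and numpy 2.4.6. Chromosome lengths came from GenomeInfoDb 1.38.1 under R 4.3.3. The code for covered bases and for joining peaks was tested on simulated data and matched a base-by-base count in 200 of 200 peak sets. Ranks and the overlap rule had simpler checks on the same sets, and the code for gaps and bins was not tested. Of the 3 gene symbols, 2 (mt-Rnr1 and mt-Rnr2) matched the RefSeq table. The members and the named peaks (the nearest peaks around the 45S peak, the 3 widest others and the neighbours in score) were chosen with earlier results of these data known. Bins, gap ranks and the 5 Mb surroundings were added after seeing the values.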

Additional observations from a re-analysis of the deposited data

How the results depend on the processing

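Over 11 results, 38 values were recomputed under alternative settings, 33 of them planned, and 37 stayed within 1.5 times the reported value. Many of these could not have moved. All 3 peaks and the widest other peak score above 10 and above the median. The score filters therefore fixed in advance the counts, coverages, ranks and ratio computed under them. Likewise, leaving out X and Y could not change the width ranks of the 3 widest peaks. The value that moved by more was the ratio of the narrowest of the 3 peaks to the widest other peak. It was 3.21 as deposited and 1.61 when peaks less than 500 bp apart were joined, since joining made an interval of 3320 bp at chr17:34256628-34259947 while the 3 peaks kept their widths. This ratio and the mitochondrial peaks joined across the origin were chosen after seeing the data. The 3 peaks were the 3 widest under each setting in which ranks were recomputed. The 45S peak ranked 17 in score without X and Y and 22 otherwise. The peak with the mitochondrial ribosomal RNA genes ranked 115 in score as deposited, 104 without X and Y and 111 with peaks joined. For the second mitochondrial peak these ranks were 40, 35 and 39. The number of peaks meeting the rule was 4 with the 45S window widened by 100 kb on each side, and 2 with the mitochondrial peaks joined across the origin. No paired analysis was possible because a single library supplied every value. Depth is unknown, and peaks below the list's threshold are not in it.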
